A study of Mus musculus with 35 samples.

Results

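The small leucine-rich proteoglycans (SLRPs) are secreted matrix proteins built around a run of leucine-rich repeats. Here they are represented by 9 genes, Dcn, Bgn, Aspn, Fmod, Lum, Prelp, Omd, Ogn and Podn, taken by symbol from knowledge of the family, after earlier results of these data were known, of the 55487 genes listed in each deposited table. All 9 passed the filter on low counts in every comparison made. The samples were 27 libraries of cardiac fibroblasts (CFs) from adult mice and 8 libraries of whole mouse hearts, sequenced from poly(A) RNA to follow the loss of IAMP, a micropeptide encoded by 4930523C07Rik. The CFs carried either a Scrambled siRNA or 1 of 2 siRNAs against IAMP, and were left untreated, given IL-17 (24 h of siRNA, then 24 h of IL-17) or given TGF-β, with 3 libraries for each of the 9 groups. The hearts came from 8-week-old C57BL/6 mice, 4 HET, with 1 disrupted IAMP allele, and 4 IAMP-KO, whose reading frame was broken by CRISPR-Cas9, so the controls of the heart comparison carry the mutation as well. The table headers name the siRNAs si1055 and si1259 and the sample labels number them, with nothing that ties the number to the header, so they are called si1055 and si1259 below. Separate cultures behind the 3 libraries of a CF group are not stated, so p-values measure the spread between libraries, which may be technical.

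SLRPs coat collagen fibrils and set their spacing and width, and several also hold growth factors or signal to receptors when they are freed from the matrix. Decorin (Dcn), biglycan (Bgn) and asporin (Aspn) form class I of the family, the first 2 with chondroitin or dermatan sulfate chains. Fibromodulin (Fmod), lumican (Lum), prolargin (Prelp) and osteomodulin (Omd) form class II, several of them with keratan sulfate. Osteoglycin (Ogn, also called mimecan) belongs to class III and podocan (Podn) to class V. In the heart these proteins are products of fibroblasts above all, and they are laid down in scar and in the interstitium.

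Most of the 9 genes lie next to relatives. In GENCODE vM21 on GRCm38, the build to which the reads were aligned, Aspn (chr13:49544443-49567565), Omd (chr13:49582462-49592822) and Ogn (chr13:49608046-49624501) follow each other on the plus strand, with gaps of 14896 and 15223 bases. Dcn (chr10:97479609-97518143, plus strand) is followed after 46984 bases by Lum (chr10:97565128-97572703, plus strand). Prelp (chr1:133910304-133921414, minus strand) and Fmod (chr1:134037254-134048277, plus strand) point away from each other across 115839 bases. Bgn (chrX:73483602-73495933, plus strand) and Podn (chr4:108014791-108096445, minus strand) have no other member nearby. Cenpp runs antisense across the whole of Aspn, Omd and Ogn and shares 7 exon bases with Aspn, and the antisense gene Gm15851 shares 350 exon bases with Prelp. Whether counting used strand is not stated, so reads in those bases cannot be told apart. Cenpp, a centromere protein gene, averaged 3.60 ± 0.603 CPM in untreated Scrambled CFs and Gm15851 0.0983 ± 0.0149 CPM (SD, n = 3).

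RefSeq promoter windows (GRCm38.p6, 250 bases before to 50 after a start site) were matched for 7 of the 9 genes, 8 windows in all because Podn has 2; Dcn and Lum had none. Windows are printed for 2 pairs that lie close on a chromosome. Aspn and Ogn, with Omd between them, fell with both siRNAs in untreated and IL-17-treated CFs. Fmod and Prelp moved apart in the same settings. Each runs 5′ to 3′ on the strand of its gene. Capitals mark the SMAD box (CAGAC), the TATA box (TATAAA) and the CArG box, each searched on both strands.
Aspn (chr13:49544193-49544492, plus strand): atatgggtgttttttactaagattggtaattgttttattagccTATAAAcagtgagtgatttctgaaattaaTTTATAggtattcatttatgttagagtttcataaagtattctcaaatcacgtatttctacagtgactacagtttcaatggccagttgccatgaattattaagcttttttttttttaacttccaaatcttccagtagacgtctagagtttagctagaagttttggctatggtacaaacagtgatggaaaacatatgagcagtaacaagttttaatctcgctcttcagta
Ogn (chr13:49607765-49608064, plus strand): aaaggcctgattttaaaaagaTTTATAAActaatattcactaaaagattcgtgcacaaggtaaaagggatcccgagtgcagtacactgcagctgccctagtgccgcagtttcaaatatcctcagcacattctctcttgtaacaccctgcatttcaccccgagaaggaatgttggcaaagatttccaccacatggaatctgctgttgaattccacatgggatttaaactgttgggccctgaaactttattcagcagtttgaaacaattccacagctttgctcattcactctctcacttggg
Fmod (chr1:134037004-134037303, plus strand): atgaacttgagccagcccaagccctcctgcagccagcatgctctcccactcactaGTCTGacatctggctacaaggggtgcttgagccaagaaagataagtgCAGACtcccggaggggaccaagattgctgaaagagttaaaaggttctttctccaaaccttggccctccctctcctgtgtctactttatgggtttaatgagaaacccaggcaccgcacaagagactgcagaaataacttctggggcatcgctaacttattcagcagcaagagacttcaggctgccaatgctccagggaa
Prelp (chr1:133921352-133921651, minus strand): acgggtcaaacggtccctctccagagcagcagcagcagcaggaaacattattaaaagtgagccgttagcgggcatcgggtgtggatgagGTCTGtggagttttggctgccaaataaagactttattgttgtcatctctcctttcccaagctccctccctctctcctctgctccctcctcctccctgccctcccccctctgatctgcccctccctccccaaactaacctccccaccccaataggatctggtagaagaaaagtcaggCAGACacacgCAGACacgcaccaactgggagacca
The SMAD box was in 3 of the 8 windows of the members (Fmod, Prelp and 1 of Podn), against 49.6% of the 32851 windows of the same length in the table. The TATA box was in 2 of 8 (at -207 and -178 from the start site in Aspn, and at -229 and -227 in Ogn), against 13.6%. GGGCGG, the GC box, was in 2 of 8 (Bgn and Podn), against 35.7%. The AP-1 site, TGANTCA, and the CArG box were in 0 of 8, against 7.81% and 1.63%. GC content was 31% in the Aspn window, 42.3% in Ogn, 51% in Fmod and 55.3% in Prelp. Matches of this kind are letters in a window, not bound sites.

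Depth was even within each kind of sample, from 104139670 to 119232309 estimated counts per CF library and from 23497027 to 23857313 counts per heart. In CFs 1 read pair was taken to be worth about 6, the most frequent value of genes seen in 1 library, which was not checked otherwise. Levels are given as CPM, counts divided by library size with TMM scaling over the 27 CF libraries or over the 8 hearts. The IAMP transcript (4930523C07Rik) fell from 22.0, 22.7 and 25.7 CPM in the untreated Scrambled libraries to 2.52, 3.51 and 2.98 CPM with si1259 and 1.77, 1.87 and 1.89 CPM with si1055. In the hearts it was 17.0 ± 1.25 CPM in HET and 16.0 ± 0.975 CPM in IAMP-KO, a frameshift that leaves the transcript in place, so it checks no heart label. The CFs held all 12 fibroblast markers in every library, while of the 12 cardiomyocyte markers only 4 to 7 had counts in every library of a group. The siRNA groups differed in markers. In untreated CFs the 12 cardiomyocyte markers summed to 90.9 to 98.3 CPM with Scrambled (Myh6, Myh7, Myl3 and Myl7 at 0), 42.7 to 47.6 with si1259 and 28.4 to 33.3 with si1055. Most of these sums came from 1 gene, Tnnt2, which averaged 56.0 CPM over the untreated libraries. In the same libraries the summed fibroblast markers were 16602 to 16979.7 CPM with Scrambled, 20987 to 21440.1 with si1259 and 19069.8 to 19788 with si1055, and the 7 smooth muscle and pericyte markers 206 to 209, 99.7 to 105 and 79.8 to 83.1 CPM. The fibroblast markers did not all move one way. Fbln2, at 5385 CPM on average, gave log2 fold changes of 0.59 with si1259 and 0.69 with si1055. Thy1, at 192 CPM, gave -0.95 and -1.04. Of the smooth muscle and pericyte markers, Smtn averaged 101 CPM and Notch3 24.7 CPM over these libraries. The part of the marker differences in the results below was not tested. A gene is called higher or lower when its p from the quasi-likelihood test of edgeR, adjusted over all genes tested (Benjamini-Hochberg), is at most 0.05, and each percentage beside a member count is the share of all those genes with that call.

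Biglycan was the most abundant SLRP transcript of the CFs by a wide margin. Scaled to exon length, it reached 626 ± 32.5 CPM per kb in untreated Scrambled CFs (mean ± SD, n = 3), against 98.1 ± 7.74 for Dcn, 93.8 ± 0.812 for Prelp, 66.5 ± 1.30 for Ogn, 28.3 ± 2.45 for Lum, 15.3 ± 0.971 for Fmod, 6.92 ± 0.933 for Aspn, 0.683 ± 0.133 for Omd and 0.533 ± 0.0721 for Podn. Libraries of Dcn and Prelp overlapped, as did those of Omd and Podn, and the other neighbours in this order stood apart. Bgn made up 66.9% of the summed length-scaled level of the 9 genes, Dcn 10.5% and Prelp 10.0%. The length used was the union of all annotated exons, 6099 bases from 8 transcripts for Bgn and 2566 from 1 for Ogn. The order and the shares therefore depend on the annotation. Together the 9 genes took 0.504% of the library in untreated Scrambled CFs, and 1.28% in the TGF-β-treated Scrambled CFs. With TGF-β the order changed in its lower part, where Fmod (44.3 ± 1.78 CPM per kb) and Aspn (35.3 ± 1.78) stood above Lum (29.1 ± 0.345). Omd and Podn were close to the limit of what could be measured: Omd had 47 to 257 estimated counts in a CF library, the worth of 8 to 43 read pairs at 6 each, and Podn 135 to 783. In the hearts the order was Dcn, Bgn, Ogn, Prelp, Lum, Aspn, Podn, Fmod and Omd, from 66.0 ± 12.0 to 0.483 ± 0.0856 CPM per kb in HET, and libraries overlapped there between Dcn and Bgn, Ogn and Prelp, Lum and Aspn, and Podn and Fmod. CF and heart tables were made and scaled separately, so a level in one is not set against a level in the other.

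**Figure D1:**
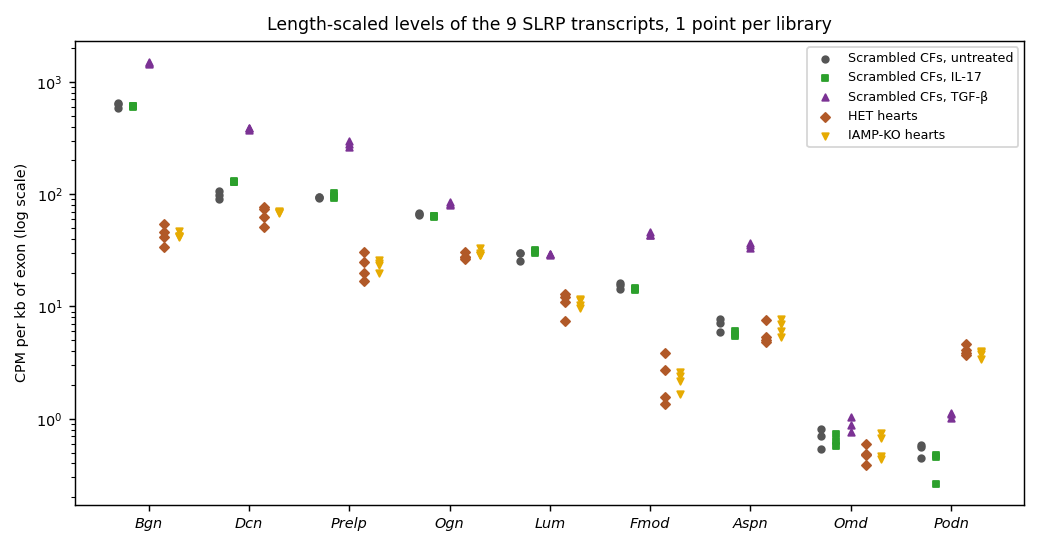
Level of each SLRP transcript in CPM per kb of exon (vertical axis, log scale), 1 point per library, for Scrambled CFs left untreated, given IL-17 or given TGF-β (3 libraries each) and for HET and IAMP-KO hearts (4 each). Bgn is highest in every CF group shown, the TGF-β points lie above the untreated points for 7 of the 9 genes, and the HET and IAMP-KO points overlap for all 9.

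The siRNAs against IAMP changed most SLRP transcripts, down more often than up. Asporin and fibromodulin fell with both siRNAs in all 3 tables, osteoglycin in the untreated and IL-17 tables, and decorin rose with si1055. The siRNA effects called reached 2.43-fold lower for Omd, a gene measured on few reads, and 2.29-fold lower for Ogn, both with si1055 under IL-17. In untreated CFs 2 members were called higher and 5 lower with si1259, where 19.5% of all genes tested were called higher and 20.4% lower. With si1055 the counts were 2 higher and 5 lower, where 24.4% of all genes tested were called higher and 25% lower. In IL-17-treated CFs 3 were higher and 5 lower with si1259 (20.3% of all genes tested were called higher and 21.9% lower), and 2 higher and 6 lower with si1055 (25% of all genes tested were called higher and 25.6% lower). In TGF-β-treated CFs 3 were higher and 3 lower with si1259 (11.7% of all genes tested were called higher and 11.4% lower), and 1 higher and 5 lower with si1055 (15.1% of all genes tested were called higher and 14.8% lower). With library totals in place of TMM the si1259 counts with TGF-β became 2 higher and 5 lower, as Dcn lost its call and Lum and Bgn were called lower. The share of members called lower, between 3 and 6 of 9, was above that of all genes in these 6 comparisons, and the share called higher was close to it in the untreated table, 2 of 9 with each siRNA. With si1259 the share called higher, 3 of 9, was above that of all genes under IL-17 (20.3%) and TGF-β (11.7%). Under IL-17 those 3 included Bgn (log2 0.079), a call lost with library totals (-0.030) and without any 1 of 3 single libraries. Without Bgn the IL-17 share would be close to that of all genes. With si1055 it was 2 of 9 against 25% and 1 of 9 against 15.1%. Most members averaged at least 10 CPM over the 27 CF libraries, as did 9259 other genes. Shares called among genes of that level were not computed. The median log2 fold change of the 9 members was -0.41 with si1259 and -0.48 with si1055 in untreated CFs, against medians of -0.016 and -0.020 over all genes tested. It was -0.45 and -0.34 with IL-17, and -0.089 and -0.26 with TGF-β. Both siRNAs were set against the same 3 Scrambled libraries of their table, so their results are not independent of each other. With library totals in place of TMM, the share of all calls that were higher went from 49.0% to 32.5% for si1259 in untreated CFs, from 48.1% to 31.2% for si1259 with IL-17 and from 50.4% to 35.2% for si1055 with TGF-β. For si1055 against si1259 with TGF-β it went from 49.9% to 39.3%. The median log2 fold change over all genes moved under that scaling from -0.016 to -0.12 for si1259 in untreated CFs and from -0.0026 to -0.11 with IL-17.

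Among class I genes, asporin fell with both siRNAs in all 3 tables. Asporin binds collagen and TGF-β and is a matrix protein of heart valves, tendon and scar. The untreated Scrambled libraries held 16.9, 13.8 and 18.1 CPM, those with si1259 7.14, 7.16 and 7.19 and those with si1055 7.21, 7.54 and 8.21, so that every siRNA library lay below every Scrambled library. This gave log2 fold changes of -1.19 ± 0.10 (SE, adjusted p = 3.1e-08) and -1.11 ± 0.10 (adjusted p = 3.5e-08). With IL-17 the values were 13.3, 12.8 and 14.3 CPM for Scrambled, 6.16, 6.54 and 7.36 for si1259 and 7.78, 6.63 and 7.36 for si1055, again apart, with log2 fold changes of -1.02 ± 0.091 and -0.91 ± 0.091. With TGF-β, Scrambled stood at 83.7, 86.8 and 78.5 CPM, si1259 at 48.6, 48.4 and 46.3 and si1055 at 52.3, 57.7 and 59.4. The log2 fold changes there were -0.80 ± 0.052 (adjusted p = 7.0e-09) and -0.55 ± 0.052 (adjusted p = 3.0e-07), and the siRNA libraries again lay below the Scrambled ones without overlap.

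Decorin, an SLRP that binds and holds TGF-β in the matrix, rose with si1055 in all 3 tables and was called with si1259 only in the TGF-β table, by a small margin. In untreated CFs the Scrambled libraries held 572, 528 and 619 CPM and the si1259 libraries 615, 591 and 607 CPM, which overlapped. The si1055 libraries stood apart at 1111, 1117 and 1112 CPM, a rise of 1.92-fold (log2 0.94 ± 0.043, adjusted p = 1.2e-11). For si1259 the log2 fold change was 0.070 ± 0.043 (adjusted p = 0.22). It was called higher without Scrambled replicate 3 (adjusted p = 0.0048) and turned to -0.030, not called, with library totals. With IL-17 the libraries read 746, 763 and 749 CPM for Scrambled, 788, 765 and 810.0 for si1259 and 1466, 1486 and 1496 for si1055. The si1055 rise was 1.94-fold (adjusted p = 1.2e-14), and si1259 gave 0.056 ± 0.026 (adjusted p = 0.11). Every si1259 library lay above every Scrambled library there. DESeq2 called si1259 higher (adjusted p = 0.046), while library totals gave -0.053, not called. With TGF-β the Scrambled libraries stood at 2253, 2258 and 2187 CPM. Those with si1259 stood at 2384, 2409.6 and 2343 CPM and those with si1055 at 2699.7, 2769 and 2787 CPM, so that the 3 groups were apart. The log2 fold change was 0.30 ± 0.031 for si1055 (adjusted p = 8.0e-07) and 0.092 ± 0.031 for si1259 (adjusted p = 0.039). The si1259 call was lost, at an adjusted p of up to 0.14, without any 1 of the si1259 replicates or without Scrambled replicate 3, and with library totals in place of TMM (0.066, adjusted p = 0.15).

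Biglycan, whose free form is a ligand of the receptors Tlr2 and Tlr4, changed by small amounts and not in one direction. In untreated CFs it stood at 3903, 3594 and 3965 CPM with Scrambled, 4183, 4012 and 4095 with si1259 and 3122, 3146 and 3381 with si1055. The si1055 libraries were below all others (log2 -0.27 ± 0.039, adjusted p = 2.1e-05), and si1259 was not called (0.094 ± 0.039, adjusted p = 0.069), although it was called higher by DESeq2 (adjusted p = 0.041), without a filter on low counts (0.044), after division by 6 (0.040) and with the compared groups alone (0.037). IL-17-treated CFs gave the same picture for si1055, 3049 to 3161 CPM against 3632 to 3700.4 with Scrambled (log2 -0.27 ± 0.025). There si1259 was called higher at 3844 to 3942 CPM (log2 0.079 ± 0.025, adjusted p = 0.016), a direction that flips to -0.030 when library totals replace TMM. That call was also lost, at an adjusted p of up to 0.098, without si1259 replicate 1 or 3 or Scrambled replicate 1. In TGF-β-treated CFs, with 8785 to 9199 CPM in Scrambled, 8362 to 8565 with si1259 and 8749.8 to 9054 with si1055, neither siRNA was called (adjusted p = 0.055 and 0.78). The si1259 value there (-0.089 ± 0.032) depended on the processing: it was called lower under 6 of 18 alternatives, among them DESeq2 (adjusted p = 0.0066), library totals (0.0089), no filter (0.032) and division by 6 (0.032).

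**Figure D2:**
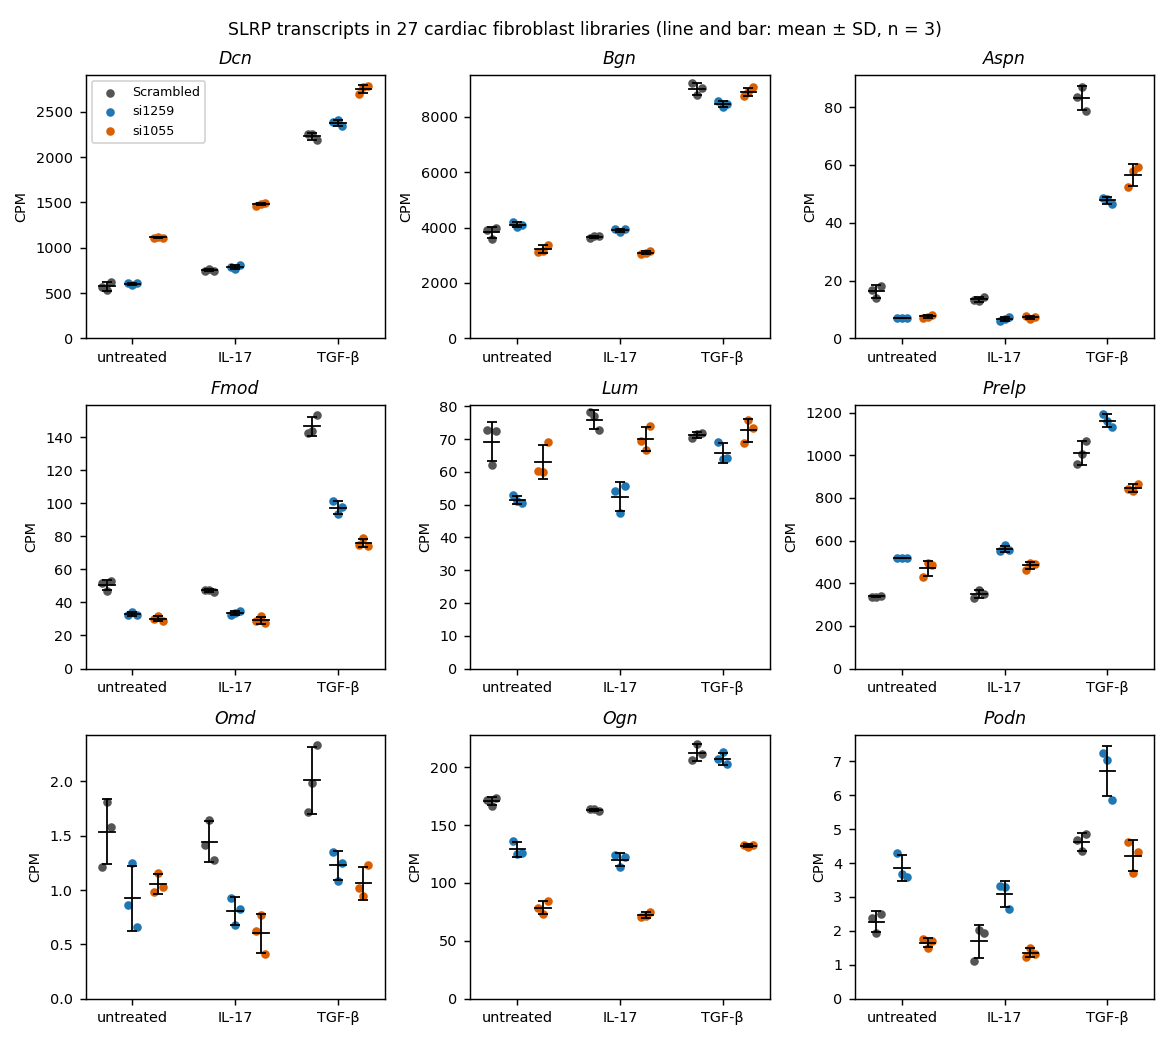
CPM of each of the 9 SLRP transcripts (vertical axes, each starting at 0) in the 27 CF libraries, grouped by stimulus and coloured by siRNA, with points for libraries and a line and bar for the mean ± SD (n = 3). Aspn and Fmod lie lower with both siRNAs in each of the 3 settings, Dcn is highest with si1055, and in Scrambled CFs the levels of Dcn, Bgn, Aspn, Fmod, Prelp, Ogn and Podn step up with TGF-β.

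Of the class II genes, fibromodulin fell with both siRNAs in all 3 tables. Fibromodulin shares a binding region on fibrillar collagen with lumican and steers fibril growth. Untreated libraries held 51.5, 46.9 and 53.1 CPM with Scrambled, against 32.3, 34.5 and 32.2 with si1259 and 29.8, 32.0 and 29.0 with si1055. IL-17-treated libraries held 47.6, 47.8 and 46.3 CPM with Scrambled, against 32.2, 33.6 and 34.6 with si1259 and 28.5, 31.8 and 27.7 with si1055. TGF-β-treated libraries held 143, 144 and 153 CPM with Scrambled, against 101, 93.3 and 97.5 with si1259 and 74.7, 78.8 and 74.1 with si1055. No siRNA library reached its Scrambled group in any setting. The log2 fold changes with si1259 were -0.62 ± 0.055, -0.51 ± 0.052 and -0.59 ± 0.041, and with si1055 -0.76 ± 0.056, -0.71 ± 0.052 and -0.95 ± 0.042, with adjusted p-values from 3.0e-11 to 3.8e-07.

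Prolargin, which links collagen to the heparan sulfate chains of basement membranes, went the other way from its neighbour Fmod outside TGF-β. Untreated Scrambled libraries read 338, 337 and 342 CPM, si1259 libraries 519, 519 and 517 and si1055 libraries 429.8, 495 and 486. Both siRNA groups lay above the control, by 0.61 ± 0.040 (adjusted p = 2.7e-09) and 0.45 ± 0.040 (adjusted p = 4.5e-08) on the log2 scale. The IL-17 values were 332, 369.7 and 349 for Scrambled, 551, 578 and 557 for si1259 and 464, 495 and 491 CPM for si1055, with log2 fold changes of 0.67 ± 0.037 and 0.44 ± 0.037. In TGF-β-treated CFs the siRNAs differed in direction: against 958, 1008 and 1068 CPM in Scrambled, si1259 stood at 1194, 1159 and 1131 and si1055 at 842, 832 and 865 CPM. The log2 fold change was 0.20 ± 0.039 with si1259 (adjusted p = 0.001) and -0.26 ± 0.039 with si1055 (adjusted p = 6.8e-05), with no overlap of libraries in either case.

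Lumican, a keratan sulfate proteoglycan that limits fibril width, fell with si1259 in untreated CFs, where Scrambled libraries held 72.7, 62.3 and 72.6 CPM and si1259 libraries 52.9, 51.1 and 50.4 (log2 -0.43 ± 0.065, adjusted p = 6.2e-05). It fell with si1259 under IL-17, with 78.3, 76.9 and 72.7 CPM in Scrambled and 54.1, 47.4 and 55.8 in si1259 libraries (log2 -0.54 ± 0.055, adjusted p = 3.2e-07). For si1055 the log2 fold changes were -0.15 ± 0.065 (adjusted p = 0.066) and -0.14 ± 0.054 (adjusted p = 0.045), and the second was lost, at an adjusted p of up to 0.17, without replicate 1 or 2 of either si1055 or Scrambled. It was lost as well with RLE factors (adjusted p = 0.051), DESeq2 (0.051) and no filter (0.073), while the first was called with library totals (-0.22, adjusted p = 0.0099) and with at least 10 counts in every library (adjusted p = 0.040). With TGF-β the libraries ranged over 70.3 to 71.8 CPM with Scrambled, 64.0 to 69.2 with si1259 and 68.9 to 75.8 with si1055, and neither siRNA was called (adjusted p = 0.081 and 0.7). Omd, best known from bone matrix, was lower with si1259 in all 3 tables, with log2 fold changes of -0.74 ± 0.25, -0.85 ± 0.26 and -0.71 ± 0.21 (adjusted p = 0.027, 0.014 and 0.018). In untreated CFs its libraries overlapped, at 1.22 to 1.81 CPM with Scrambled and 0.661 to 1.25 CPM with si1259. The si1259 calls for Omd were lost in untreated CFs, at an adjusted p of up to 0.13, without si1259 replicate 1 or 3 or Scrambled replicate 2 or 3. With IL-17 they were lost, at up to 0.067, without replicate 2 of either group, and with TGF-β, at up to 0.097, without si1259 replicate 2 or 3 or Scrambled replicate 3. With si1055 Omd fell in the IL-17 table (log2 -1.28 ± 0.26, adjusted p = 5.0e-04) and the TGF-β table (log2 -0.92 ± 0.21, adjusted p = 0.0026). It was not called in untreated CFs (-0.56 ± 0.25, adjusted p = 0.076), although the si1055 libraries all lay below the Scrambled ones. It was called lower there with library totals (adjusted p = 0.048), with the compared groups alone (0.049) and without Scrambled replicate 1.

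Osteoglycin, the class III member and a collagen-binding protein of the cardiac interstitium, fell further with si1055 than with si1259. Untreated CFs held 171, 167 and 173 CPM with Scrambled, 136, 125 and 126 with si1259 and 78.3, 73.3 and 84.8 with si1055, which put the 3 groups in 3 separate steps. The log2 fold changes were -0.41 ± 0.048 (adjusted p = 3.4e-06) and -1.13 ± 0.049 (adjusted p = 6.9e-12). The steps recurred with IL-17, where Scrambled stood at 164, 164 and 162 CPM, si1259 at 124, 114 and 122 and si1055 at 70.4, 71.4 and 75.4 (log2 -0.45 ± 0.035 and -1.19 ± 0.036). With TGF-β only si1055 was called: 206, 220.3 and 212 CPM in Scrambled compared with 207, 213 and 202 with si1259 (log2 -0.036 ± 0.034, adjusted p = 0.55) and 133, 131 and 133 with si1055 (log2 -0.68 ± 0.034, adjusted p = 1.5e-10). Podocan, a class V collagen-binding protein studied mainly in the vessel wall, rose with si1259, and untreated libraries held 2.39, 1.93 and 2.51 CPM with Scrambled and 4.30, 3.68 and 3.59 with si1259. Its log2 fold change with si1259 was 0.75 ± 0.15 untreated, 0.86 ± 0.21 with IL-17 and 0.54 ± 0.12 with TGF-β (adjusted p = 8.0e-04, 0.0027 and 0.0024). With si1055 it was lower in untreated CFs, at 1.75, 1.50 and 1.71 CPM (log2 -0.48 ± 0.16, adjusted p = 0.018), a call lost at an adjusted p of up to 0.073 without si1055 replicate 2 or Scrambled replicate 1 or 3. It was not called with IL-17 or TGF-β (log2 -0.34 ± 0.21 and -0.13 ± 0.12, adjusted p = 0.2 and 0.47).

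**Figure D3:**
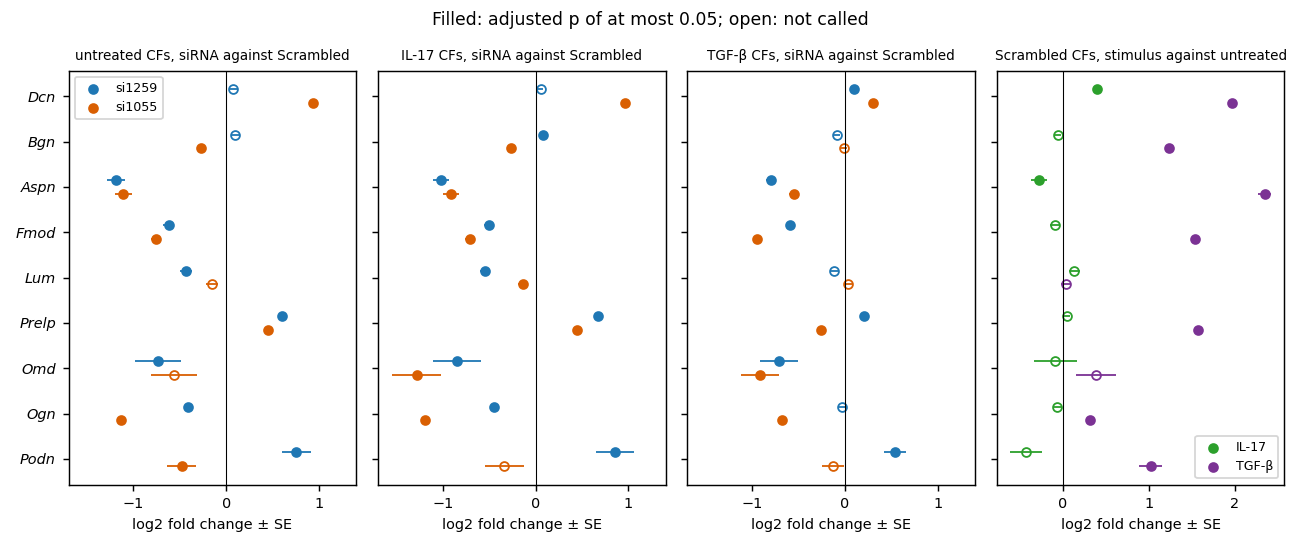
Log2 fold change ± SE (horizontal axes) of each SLRP transcript for both siRNAs against Scrambled within the untreated, IL-17 and TGF-β tables (3 libraries a group), and for each stimulus against untreated in Scrambled CFs. Filled points passed an adjusted p of at most 0.05: Aspn and Fmod lie below 0 with both siRNAs in all 3 tables, and with TGF-β the 7 filled points all lie above 0.

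Within each table si1055 was set directly against si1259. In untreated CFs 2 members were higher and 4 lower with si1055 than with si1259, where 22.7% of all genes tested were called higher and 22.8% lower. With IL-17 the counts were 2 and 5 (23.1% of all genes tested were called higher and 23.1% lower), and with TGF-β 3 and 4 (12% of all genes tested were called higher and 12% lower). Dcn was higher with si1055 in all 3 tables, by 0.87 ± 0.043, 0.90 ± 0.027 and 0.21 ± 0.031 on the log2 scale (adjusted p = 5.7e-11, 5.0e-14 and 7.5e-05). Lum was higher with si1055 by 0.28 ± 0.065, 0.41 ± 0.055 and 0.14 ± 0.045, the last lost, at an adjusted p of up to 0.13, without replicate 2 or 3 of either siRNA and, at 0.080, with library totals. Ogn was lower with si1055, with differences of -0.72 ± 0.049, -0.74 ± 0.036 and -0.65 ± 0.034. Podn was lower as well (-1.23 ± 0.16, -1.20 ± 0.21 and -0.67 ± 0.12), and so was Prelp (-0.15 ± 0.039, -0.23 ± 0.037 and -0.46 ± 0.039). Bgn was lower with si1055 untreated and with IL-17 (-0.36 ± 0.039 and -0.35 ± 0.025) and not called with TGF-β (0.073 ± 0.032). Aspn differed by 0.082 ± 0.10 and 0.11 ± 0.092 in the untreated and IL-17 tables, neither called, and by 0.24 ± 0.052 with TGF-β (adjusted p = 0.0023). Fmod was lower with si1055 with IL-17 and TGF-β (-0.20 ± 0.052 and -0.36 ± 0.042) and not called untreated (-0.14 ± 0.056, adjusted p = 0.055). Omd was called in none of the 3 (0.18 ± 0.25, -0.44 ± 0.26 and -0.21 ± 0.21). The IAMP transcript itself (4930523C07Rik) was lower with si1055 than with si1259 in the 3 tables (-0.72 ± 0.12, -0.58 ± 0.11 and -0.41 ± 0.11).

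Most SLRP transcripts stood higher in TGF-β-treated than in untreated CFs, while with IL-17 Dcn rose, Aspn was slightly lower and the other 7 were not called. Both stimuli were compared with untreated CFs in the Scrambled libraries alone. Because each stimulus was deposited as a table of its own, stimulus and table cannot be told apart. With TGF-β 7 of 9 members were called higher and 0 lower, where 29.3% of all genes tested were called higher and 28% lower. The median log2 fold change of the members was 1.23, against 0.029 over all genes tested. Aspn changed most, from 16.9, 13.8 and 18.1 to 83.7, 86.8 and 78.5 CPM, 5.09-fold (log2 2.35 ± 0.075, adjusted p = 2.2e-18). Dcn went from 572, 528 and 619 to 2253, 2258 and 2187 CPM, 3.89-fold (adjusted p = 6.1e-22). Bgn rose 2.35-fold from a base that was already the highest, to 9199, 8785 and 9025 CPM (adjusted p = 4.5e-19). The other calls were Prelp (2.98-fold), Fmod (2.89-fold), Podn (2.03-fold, to 4.35 to 4.84 CPM) and Ogn (1.24-fold). Libraries of all 7 stood apart from untreated. Lum gave 0.039 ± 0.058 (adjusted p = 0.6) and Omd 0.39 ± 0.23 (adjusted p = 0.17), with overlapping libraries. With IL-17 1 member was higher and 1 lower, where 6.61% of all genes tested were called higher and 6.96% lower. Dcn went from 572, 528 and 619 to 746, 763 and 749 CPM (log2 0.39 ± 0.037, adjusted p = 9.7e-09). Aspn was called lower at -0.27 ± 0.093 (adjusted p = 0.0497) with overlapping libraries, and that call was lost, at an adjusted p of up to 0.29, when any of 14 of the 18 libraries was left out. It held without untreated Scrambled replicate 2, IL-17 si1055 replicate 2 or IL-17 si1259 replicate 1 or 3. The other 7 lay between -0.43 (Podn) and 0.13 (Lum) on the log2 scale and were not called, although the IL-17 libraries of Ogn (162 to 164 CPM) all lay below the untreated ones (167 to 173 CPM). Markers moved with TGF-β too. From untreated to TGF-β-treated Scrambled CFs the 10 macrophage and leukocyte markers (9 with a count in every library, Cd3e at 0) went from 59.8 to 64.2 CPM up to 157 to 166, the 8 endothelial markers from 67.9 to 74.1 up to 127 to 129 and the 12 fibroblast markers from 16602 to 16979.7 up to 18546 to 19357. The 12 cardiomyocyte markers (5 with a count in every library of each group) went from 90.9 to 98.3 CPM down to 5.87 to 6.58, the 7 smooth muscle and pericyte markers from 206 to 209 down to 166 to 179 and the 5 epicardial markers from 90.9 to 98.1 down to 31.6 to 36.4. Single genes weigh in these sums. Over all libraries of a table, Tnnt2 averaged 56.0 CPM untreated and 3.71 with TGF-β, and the fibroblast marker Thy1 192 and 81.5. The part of the markers in the SLRP differences was not tested.

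Each siRNA effect was then compared between settings, as the difference of 2 log2 fold changes in a joint fit of 18 libraries. Between IL-17 and untreated CFs no member was called for either siRNA by edgeR or DESeq2, none had an unadjusted p under 0.05, and the differences ranged from -0.11 to 0.17 for si1259 and from -0.72 (Omd) to 0.20 for si1055. In this comparison 0.895% of all genes tested were called higher and 1.24% lower for si1259, and 0.688% of all genes tested were called higher and 1.2% lower for si1055. Between TGF-β and untreated CFs, 3 members were higher and 2 lower for si1259 (9.19% of all genes tested were called higher and 10.4% lower), and 3 higher and 3 lower for si1055 (14.6% of all genes tested were called higher and 15.6% lower). For si1259 with library totals in place of TMM, the share of all such calls that were higher went from 46.8% to 66.5%. The Aspn fall was smaller on the log2 scale with TGF-β, by 0.39 ± 0.10 for si1259 and 0.54 ± 0.10 for si1055 (adjusted p = 0.0085 and 2.5e-04). The Ogn fall was smaller by 0.37 ± 0.061 and 0.43 ± 0.061 (adjusted p = 8.0e-05 and 5.3e-06). For Prelp the siRNA effect was more negative with TGF-β, a difference of -0.41 ± 0.060 and -0.73 ± 0.060 (adjusted p = 1.5e-05 and 1.2e-09). The Dcn rise with si1055 was smaller with TGF-β, a difference of -0.66 ± 0.054 (adjusted p = 1.2e-09). Bgn differed by -0.19 ± 0.051 for si1259 and 0.23 ± 0.051 for si1055, Lum by 0.31 ± 0.082 for si1259 and Fmod by -0.21 ± 0.070 for si1055. The Bgn call for si1259 was lost with library totals (-0.11, adjusted p = 0.13) and without untreated si1259 replicate 1 (-0.16, adjusted p = 0.051), and the Fmod call for si1055 (adjusted p up to 0.1) without untreated si1055 replicate 2, untreated si1259 replicate 1 or 3, untreated Scrambled replicate 1 or 2, TGF-β si1055 replicate 1 or 3 or TGF-β Scrambled replicate 3. Here too stimulus and table cannot be told apart, and the fits share their untreated libraries with the comparisons above. The depth of knockdown differed as well. With TGF-β the IAMP transcript stood at 19.1, 19.5 and 22.6 CPM with Scrambled. It stood at 4.58, 4.01 and 4.42 CPM with si1259 and 2.87, 3.18 and 3.72 with si1055. Untreated libraries held 2.52, 3.51 and 2.98 CPM with si1259 and 1.77, 1.87 and 1.89 with si1055. The part of knockdown depth in these differences was not tested.

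Over the 27 CF libraries, the genes whose log2 CPM was most closely correlated with each member were taken for the 7 members with at least 10 CPM on average, among 9259 other genes at that level. Bgn was most like Igfbp7 (Pearson r = 0.996) and Ctsh (0.995), Aspn like Fbln5 (0.990) and Anapc2 (0.985), Prelp like Magi1 (0.984) and Tuba1a (0.984), and Fmod like Ltbp4 (0.982) and Camk2n1 (0.978). Dcn was most like Pnrc1 (0.982) and Mrpl22 (0.980), Ogn like Cdip1 (0.978) and Dzip1 (0.974), and Lum like Dpy30 (0.905) and Atmin (0.890). Within the family, r ran from 0.033 between Lum and Prelp to 0.970 between Fmod and Aspn. The neighbours Dcn and Lum gave 0.432 and Prelp and Fmod 0.736, while Aspn and Ogn, with Omd between them, gave 0.710. The libraries share table, stimulus and scaling in groups, so these values are descriptions and carry no test.

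Of 8 further SLRP genes, Tsku, a class IV member that binds growth factors, stood at 73.6 ± 2.94 CPM in untreated Scrambled CFs. It rose with both siRNAs to 138 ± 6.31 and 153 ± 4.27 CPM (log2 0.90 ± 0.040 and 1.04 ± 0.040) and with TGF-β to 113 ± 3.90 CPM. Ecm2, which lies before Aspn on chromosome 13 (chr13:49504810-49532789), fell with both siRNAs in untreated CFs, from 7.83 ± 0.759 to 6.36 ± 0.447 and 3.91 ± 0.405 CPM (log2 -0.31 ± 0.11 and -1.02 ± 0.11). Epyc, a class III member, averaged 1.09 ± 0.169 CPM in untreated Scrambled CFs, and the class V member Podnl1 0.269 ± 0.126, rising to 1.15 ± 0.0398 with TGF-β (log2 2.08 ± 0.45, adjusted p = 3.2e-04). Optc averaged 0.290 ± 0.0931 CPM untreated and 1.03 ± 0.122 with TGF-β. Chad, which binds collagen in cartilage, stood at 6.10 ± 4.30 CPM in HET hearts. The other 2 genes of the list were under 1 CPM on average in every group. As a list, 7 of the 8 were tested in untreated CFs. With si1259 2 were higher and 1 lower, where 19.5% of all genes tested were called higher and 20.4% lower. With si1055 2 were higher and 1 lower, where 24.4% of all genes tested were called higher and 25% lower. The median log2 fold changes were 0.25 and 0.25. With TGF-β in Scrambled CFs 4 were higher and 0 lower, where 29.3% of all genes tested were called higher and 28% lower.

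Among genes around the SLRPs, the shares called can be read against those of all genes tested. In untreated CFs these were 19.5% higher and 20.4% lower with si1259, and 24.4% higher and 25% lower with si1055. With TGF-β in Scrambled CFs they were 29.3% higher and 28% lower. The untreated median log2 fold changes over all genes were -0.016 with si1259 and -0.020 with si1055. Of 22 chondroitin and dermatan sulfate synthesis genes, 10 higher and 4 lower were called with si1259 and 5 higher and 11 lower with si1055 in untreated CFs (median log2 fold change 0.15 and -0.20), and 10 higher and 7 lower with TGF-β. Chst11, a chondroitin sulfotransferase, rose by 0.86 ± 0.027 and 0.79 ± 0.027, and Dse, the epimerase that makes dermatan from chondroitin, by 0.77 ± 0.032 and 0.74 ± 0.032. Of 7 tested keratan sulfate synthesis genes, 2 higher and 4 lower were called with si1259 and 2 higher and 3 lower with si1055 (median log2 fold change -0.62 and -0.47). The sulfotransferases Chst1 (-1.19 ± 0.12 and -0.53 ± 0.12) and Chst2 (-0.74 ± 0.085 and -1.66 ± 0.088) fell with both.

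Proteases that cut SLRPs moved with the siRNAs as well, 8 higher and 1 lower of 12 with si1259 and 3 higher and 7 lower with si1055 in untreated CFs (median log2 fold change 0.25 and -0.21). For this list and the collagens below, 19.5% of all genes tested were called higher and 20.4% lower with si1259. With si1055 the shares were 24.4% and 25%. Mmp3 (a stromelysin) rose from 377, 377 and 432 CPM with Scrambled to 1387, 1318 and 1429 CPM with si1259 and 1525, 1467 and 1679.6 CPM with si1055. Its log2 fold changes were 1.80 ± 0.070 and 1.96 ± 0.070, and Mmp13 (a collagenase) rose by 1.51 ± 0.17 and 1.67 ± 0.17. The list of 15 collagens and fibril partners gave different counts by siRNA, 11 higher and 1 lower with si1259 and 3 higher and 11 lower with si1055 (median log2 fold change 0.44 and -0.31). Col3a1 rose with both, by 0.97 ± 0.036 and 1.45 ± 0.037, and Col6a3 fell with both (-1.24 ± 0.063 and -2.84 ± 0.067). Col1a1 rose with si1259 (0.49 ± 0.027) and fell with si1055 (-0.18 ± 0.027).

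Of 18 receptors and ligands that SLRPs bind, 7 higher and 6 lower were called with si1259 and 6 higher and 10 lower with si1055 in untreated CFs (median log2 fold change 0.084 and -0.15). For this list and the untreated counts below, 19.5% of all genes tested were called higher and 20.4% lower with si1259. With si1055 the shares were 24.4% and 25%. Kdr (a VEGF receptor) was lower with both (-0.76 ± 0.13 and -0.73 ± 0.13), and Bmp4 was lower with both in TGF-β-treated CFs (-0.20 ± 0.051 and -1.04 ± 0.052). Tgfb1 changed by -0.10 ± 0.036 and -0.12 ± 0.036 in untreated CFs and by 0.25 ± 0.040 and 0.47 ± 0.040 in TGF-β-treated CFs, called in all 4. Of 19 tested genes for other proteoglycan cores, 9 higher and 4 lower were called with si1259 and 6 higher and 5 lower with si1055 (median log2 fold change 0.35 and 0.093), led by Prg4 (lubricin), which rose by 1.14 ± 0.088 and 2.64 ± 0.090. Acan (aggrecan) fell with both in TGF-β-treated CFs (-1.06 ± 0.25 and -2.02 ± 0.26). Of 10 myofibroblast genes, 6 higher and 1 lower were called with si1259, 1 higher and 7 lower with si1055 (median log2 fold change 0.24 and -0.82) and 6 higher and 3 lower with TGF-β in Scrambled CFs (29.3% and 28% of all genes). Acta2 (smooth muscle actin) rose with si1259 (0.24 ± 0.034), fell with si1055 (-0.77 ± 0.034) and rose with TGF-β (1.55 ± 0.036). Postn (periostin) gave -0.022 ± 0.033, not called, with si1259 and fell with si1055 (-0.86 ± 0.033) and with TGF-β (-0.55 ± 0.034). Cthrc1 fell with both siRNAs (-0.35 ± 0.13 and -1.24 ± 0.13), and Cnn1 (calponin) fell with both in TGF-β-treated CFs (-1.03 ± 0.11 and -1.98 ± 0.11).

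In whole hearts, IAMP-KO and HET did not differ detectably in any SLRP transcript. No gene of the 16675 tested was called by edgeR (0% called higher and 0% called lower), with 601 genes at an unadjusted p under 0.05, and DESeq2 called 2 higher and 1 lower, none of them a member. The 9 log2 fold changes ran from -0.11 ± 0.34 (Fmod) to 0.26 ± 0.21 (Omd), the lowest unadjusted p of a member was 0.10 (Ogn), and libraries overlapped for all 9. Dcn stood at 363, 297, 429 and 453 CPM in the HET hearts and 410.0, 399.7, 407 and 406 CPM in the IAMP-KO hearts (0.074 ± 0.11 on the log2 scale). Bgn stood at 253, 205, 278 and 329.6 CPM in HET and 286, 259.8, 255 and 261 CPM in IAMP-KO (-0.0044 ± 0.12). Aspn, which fell with both siRNAs in CFs, stood at 11.8, 11.4, 17.7 and 12.5 CPM in HET and 18.1, 16.5, 12.5 and 14.1 CPM in IAMP-KO (0.20 ± 0.16). Ogn had the narrowest range across hearts, 70.1, 67.2, 78.2 and 71.3 CPM in HET and 77.1, 74.1, 84.8 and 73.6 CPM in IAMP-KO (0.11 ± 0.062). Prelp ranged over 60.8 to 109.9 CPM in HET and 71.6 to 92.9 in IAMP-KO, Lum over 18.2 to 31.3 and 23.8 to 28.4, Podn over 15.9 to 19.8 and 14.6 to 17.2, Fmod over 4.44 to 12.8 and 5.53 to 8.66, and Omd over 0.870 to 1.34 and 0.985 to 1.69 CPM. In whole tissue, fewer fibroblasts and less RNA per fibroblast cannot be told apart.

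The spread among hearts was wider in HET than in IAMP-KO for some members, with coefficients of variation of 18.2% and 1.06% for Dcn, 19.5% and 5.19% for Bgn and 49.3% and 18.3% for Fmod. Heart 2 of the HET group had the lowest and heart 4 the highest summed level of the 12 fibroblast markers, 1390 and 2139 CPM, against 1828 to 1872 CPM in the 4 IAMP-KO hearts. That HET heart 2 had the lowest level of 8 of the 9 members, Podn excepted, and HET heart 4 the highest of Dcn, Bgn, Fmod, Lum and Prelp. Across the 8 hearts the marker sum gave Pearson r = 0.978 with Dcn, 0.939 with Bgn, 0.917 with Lum, 0.901 with Prelp and 0.845 with Fmod, and 0.425 with Ogn, 0.423 with Podn, 0.305 with Aspn and 0.177 with Omd. These are 8 points that share the scaling of 1 table, and the part of the marker level in the genotype comparison was not tested. The IAMP-KO hearts cover little of the marker range, so the values of r rest mainly on the HET hearts. Without HET heart 2 the Dcn difference was -0.032, and without HET heart 4 the Fmod difference was 0.23, with no member called in either case.

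**Figure D4:**
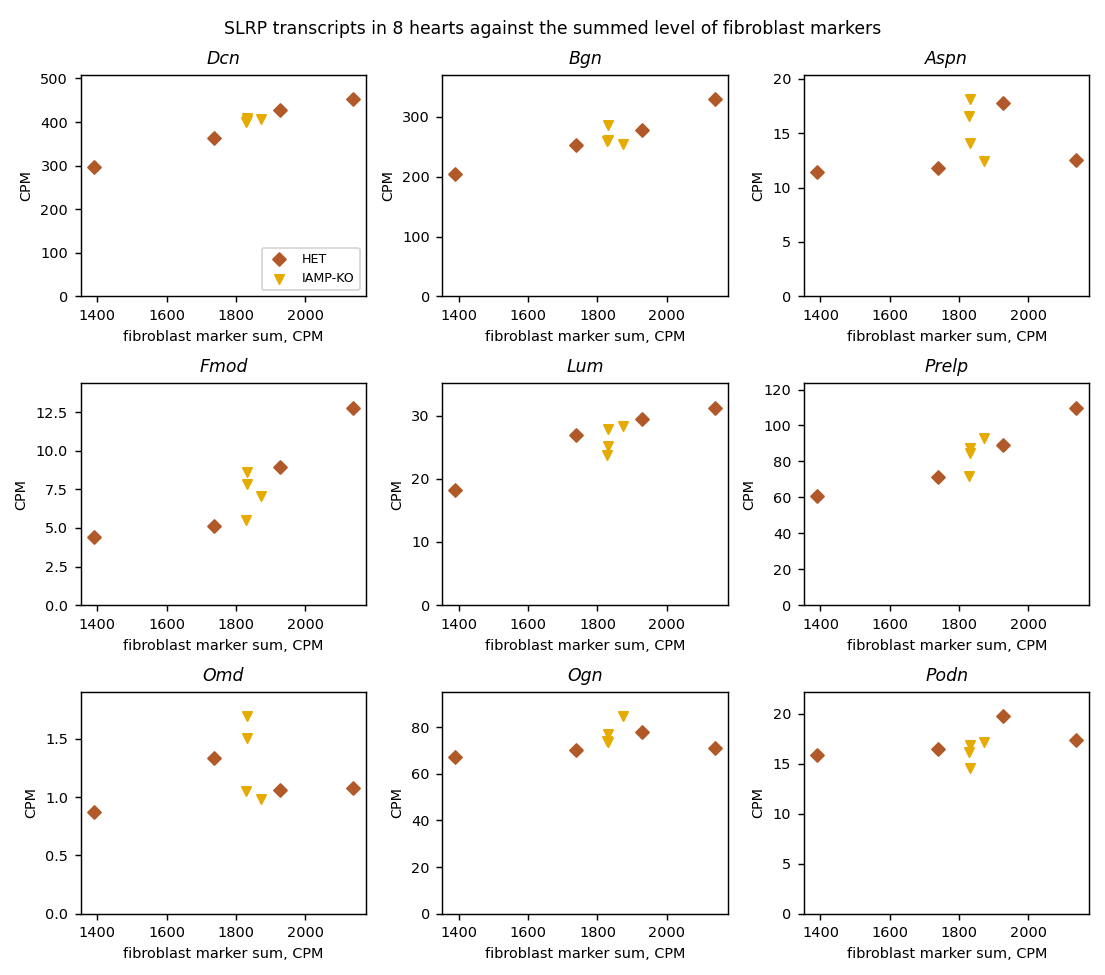
CPM of each SLRP transcript (vertical axes, each starting at 0) against the summed CPM of 12 fibroblast markers (horizontal axis) in 4 HET and 4 IAMP-KO hearts, 1 point per heart. Points of the genotypes overlap for all 9 genes, and the HET hearts with the lowest and highest marker sums are also the lowest and highest for Dcn, Bgn, Fmod, Lum and Prelp.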

How the data were processed

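Poly(A) RNA was sequenced from 27 CF libraries and 8 hearts. The authors trimmed reads with cutadapt, aligned them with HISAT2 to GRCm38 and deposited StringTie estimated counts per gene for the CFs, in 3 tables by stimulus, and whole-number read counts per gene for the hearts; the authors' own DESeq2 results were not used. Annotation release and strand setting are not given in the sources used here. Estimated counts were whole numbers as deposited, and 6 was the most frequent value of genes seen in 1 CF library. It was the value of 21.9% of such genes in the untreated table, 22.0% with IL-17 and 17.0% with TGF-β.

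Counts were tested with edgeR 4.0.16 in R 4.3.3 (filterByExpr, TMM, robust quasi-likelihood test, two-sided, Benjamini-Hochberg over all genes tested), with the 3 groups of a table in 1 fit, 6 groups for stimuli and interactions, and 2 for hearts. A call was an adjusted p of at most 0.05. The steps were tested on simulated counts of independent libraries, which cannot speak to shared cultures or to stimulus and table. Printed CPM used TMM over the 27 CF libraries or the 8 hearts, and length scaling used the exon union of GENCODE vM21. Depth was 104139670 to 119232309 estimated counts per CF library and 23497027 to 23857313 counts per heart. Members and lists were chosen with earlier results of these data known. From each other list the text names the 2 genes with the largest change among those called the same way with both siRNAs at a mean of at least 1 CPM, further SLRP genes of at least 1 CPM in some group, and Col1a1, Col3a1, Mmp3, Tgfb1, Acta2, Postn and 4930523C07Rik. Likeness used genes of at least 10 CPM. Alternatives were DESeq2 1.42.0, RLE and unscaled totals, other filters, a fold threshold (log2 of 1, or 0.585 within the IL-17 and TGF-β tables), a replicate block, other sets of groups in the fit, division by 6 and leaving out each library.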

Additional observations from a re-analysis of the deposited data

Results flagged for a closer look

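A joint fit of 18 libraries tested whether the effect of each siRNA differed between TGF-β-treated and untreated CFs, and 11 such differences on SLRP transcripts passed an adjusted p of 0.05 (edgeR, difference of 2 log2 fold changes). For Prelp the difference was -0.4121 with si1259 and -0.7271 with si1055, and for Dcn it was -0.6551 with si1055. For Aspn it was 0.388 with si1259 and 0.5354 with si1055, and for Ogn 0.3663 and 0.4299. Bgn differed by -0.189 with si1259 and by 0.2331 with si1055, so the sign was opposite for the siRNAs. Lum differed by 0.313 with si1259 and Fmod by -0.209 with si1055. Both siRNAs share their Scrambled libraries, and TGF-β and untreated CFs were deposited as separate tables, so stimulus and table cannot be told apart. The IAMP transcript also stayed higher under both siRNAs with TGF-β than untreated, and the part of that in these differences was not tested. Among the 4 HET and the 4 IAMP-KO hearts no member had a heart far from the others by Dixon's test.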

How the results depend on the processing

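Counts of SLRP members called (of 9) stayed within 1.5 times their value under DESeq2, RLE factors, unscaled totals, other filters, other sets of groups and division by 6, except that the 2 calls of IL-17 against untreated in Scrambled CFs became 1 with RLE factors, unscaled totals or no filter, where Aspn missed the threshold. A fold threshold lowered the counts by construction: in untreated CFs 1 remained for si1259, 2 for si1055 and 1 between siRNAs, with IL-17 4, 5 and 3, with TGF-β 3, 3 and 2, and 0 for IL-17 in Scrambled CFs and for both differences with TGF-β. Leaving out 1 library gave, for si1259, si1055 and between them, 6 to 8, 6 to 8 and 6 to 7 in untreated CFs, 7 to 8, 7 to 8 and 7 with IL-17, and 4 to 7, 6 and 6 to 7 with TGF-β. It gave 1 to 3 for IL-17 and 7 for TGF-β in Scrambled CFs, 4 to 5 (si1259) and 5 to 7 (si1055) for the differences with TGF-β, and 0 for those with IL-17 and for hearts. Where a fit left 2 libraries in a group, the spread came from all its groups.

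Directions turned only for values of at most 0.18 in size on the log2 scale, the largest being Omd between siRNAs in untreated CFs. With unscaled totals si1259 gave -0.030 for Dcn and -0.0053 for Bgn untreated, -0.053 for Dcn and -0.030 for Bgn with IL-17, si1055 gave -0.030 for Lum with TGF-β, and Prelp gave -0.00074 in hearts. Of these only Bgn with IL-17 had been called. For si1055 with IL-17 against untreated, Bgn turned to -0.0025 with RLE factors or DESeq2 and -0.0079 with unscaled totals, and Prelp to -0.010, -0.010, -0.015, -0.0073 without a filter and -0.0071 in a fit of 27 libraries. Leaving out libraries turned, between siRNAs untreated, Omd (-0.016 to 0.46), and for si1055 with TGF-β Lum (-0.0035 to 0.066) and Bgn (-0.032 to 0.00025). In Scrambled CFs it turned Omd with IL-17 (-0.23 to 0.045) and Lum with TGF-β (-0.034 to 0.057). Of the differences with IL-17 it turned, for si1259, Dcn (-0.074 to 0.042), Bgn (-0.044 to 0.029), Omd (-0.30 to 0.17) and Podn (-0.12 to 0.25), and for si1055 Dcn (-0.032 to 0.084), Lum (-0.019 to 0.097), Bgn (-0.020 to 0.052), Ogn (-0.11 to 0.0084), Prelp (-0.058 to 0.040) and Podn (-0.076 to 0.29). Of those with TGF-β for si1259 it turned Dcn (-0.032 to 0.074), Fmod (-0.0045 to 0.079) and Omd (-0.16 to 0.31). In hearts it turned Dcn (-0.032 to 0.16), Lum (-0.15 to 0.081), Bgn (-0.11 to 0.11), Fmod (-0.30 to 0.23) and Prelp (-0.099 to 0.19). None of these had been called. Apart from the library totals, the causes were not tested.

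Same-numbered libraries did not deviate together within a table (correlations of at most 0.064, 0 of 9 pairs over 0.1 in each), so no pairing by number was seen. With the replicate block the counts were 8, 8 and 6 untreated, 8, 8 and 7 with IL-17, 6, 6 and 7 with TGF-β (si1259, si1055 and between them), 2 and 7 for the stimuli, 0 and 0 for the differences with IL-17 and 5 and 6 for those with TGF-β. It added Bgn for si1259 (0.096) and Lum for si1055 (-0.15) in untreated CFs and changed no other call. For the hearts no paired analysis was possible because their columns carry no numbers shared between genotypes. Depth limits Omd and Podn, at 47 to 257 and 135 to 783 estimated counts per CF library, and 4 hearts per genotype limit the heart comparison.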
